A study of Mus musculus with 8 samples.

Results

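A set of 10 genes of blood clotting and of clot dissolution was measured in mouse cultures labelled as bone marrow adipocytes. The genes were F3, Tfpi, F10, Thbd, Procr, F13a1, Plau, Plaur, Plat and Serpinb2. They were chosen by name, with the differences between the groups already known, and all 10 were found among the 54134 genes of the deposited table. In the annotation that the authors placed in the table, all 10 belong to the KEGG pathway of complement and coagulation cascades. Of the 10, 9 reached 1 TPM (reads over transcript length, scaled to one total per library) in at least 2 libraries, as did 14985 genes in all, and F10 did not.

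The cells were wild type (WT) and came from bone marrow stem cells that all went through 14 days of adipogenic differentiation. The 8 libraries fell into Control (n = 2), which received no further agent, GC (n = 3), given the synthetic glucocorticoid dexamethasone (DEX) at 1e-06 M for 24 hours, and GC+GW9662 (n = 3), given the same DEX plus the PPARγ inhibitor GW9662 whose dose the sources used here do not state. Libraries were made by Smart-Seq2, which amplifies full-length cDNA without a record of the strand. Nothing in the labels tells if the libraries of 1 group stem from separate cultures, and every SD, SE and p measures only the spread between these libraries.

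Clotting starts when tissue factor, a membrane protein encoded by F3, meets factor VII in plasma. The resulting complex activates factor X, which leads to thrombin, and thrombin makes fibrin that factor XIII then crosslinks. Thrombomodulin and the endothelial protein C receptor turn thrombin towards activating protein C, an anticoagulant. Fibrin is dissolved by plasmin, which the activators uPA and tPA release from plasminogen and which inhibitors of the serpin family hold back. Many of these proteins are also made outside the vessel wall and the liver, F13a1 and F3 in macrophages among them, and uPA and its receptor have roles in cell migration and tissue remodelling.

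Some properties of the libraries bear on all values below. Fkbp5 and Tsc22d3, genes that glucocorticoids are known to induce, had their highest levels without DEX by the labels. Fkbp5 measured 446 ± 24.1 TPM in the Control libraries, 58.5 ± 24.2 in GC and 95.4 ± 14.3 with GW9662 added, and Tsc22d3 measured 557 ± 21, 59.6 ± 7.70 and 429 ± 27.2 TPM (SD, n = 2, 3 and 3). These values go against the labels, so GC and Control below mean the libraries labelled so, and each direction rests on those labels. Macrophage markers summed higher than those of adipocytes in every library. The sums of 10 macrophage genes were 30926 and 31831 TPM in Control, 9442 to 9988 in GC and 24439 to 28427 in GC+GW9662. Those of 8 adipocyte genes (Lep at 0 in every library) were 1192 and 1193, 37.3 to 52.6 and 1083 to 1225 TPM. Such sums hide members that went opposite ways. Lpl measured 641 and 602 TPM in Control and 84.8 to 101 in GC+GW9662. Fabp4 measured 280 and 321, then 647 to 777 TPM. Of 7 adipocyte genes tested in GC+GW9662 against Control, 3 passed the threshold given below as higher and 2 as lower. Of the 10 macrophage genes, 7 passed as lower there and 0 as higher. Marrow stroma genes (8) summed to 1307 and 1370 TPM in Control, 51.0 to 98.6 in GC and 331 to 356 in GC+GW9662. Neutrophil genes (8, Ltf at 0), nearly all S100a8, summed to 21 and 26.7, 249 to 550.1 and 72.4 to 83.9 TPM, and mast cell genes (5, Fcer1a at 0) to at most 2.80 TPM. In bulk RNA, fewer cells of a type and less RNA per cell cannot be told apart. Estimated depth was 17436298 to 26523333 reads per library. GC replicate 1 stood apart in the longest of 10 bins of genes by exon length, where its median deviation from the group mean was -0.54 on the log2 scale against 0.41 and 0.15 in GC replicates 2 and 3.

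Promoter sequence was at hand for 7 of the 10 genes, as windows of 250 bases before the annotated start (RefSeq, GRCm38.p6). Of these 7, 3 held the AP-1 motif TGACTCA, read on both strands: Procr, F3 and Plaur. They are printed because these 3 genes, a protein C receptor, the initiator of clotting and the uPA receptor, share the motif while their levels differed in opposite directions between GC and Control, as described below. Capitals mark the motif, which in F3 lies on the other strand. The windows were chr2:155750967-155751216, chr3:121723287-121723536 and chr7:24462233-24462482, all on the plus strand.
Procr: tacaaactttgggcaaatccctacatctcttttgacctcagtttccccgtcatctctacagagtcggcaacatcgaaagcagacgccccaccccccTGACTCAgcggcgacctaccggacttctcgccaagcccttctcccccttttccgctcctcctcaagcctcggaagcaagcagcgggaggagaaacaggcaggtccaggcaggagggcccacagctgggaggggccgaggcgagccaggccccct
F3: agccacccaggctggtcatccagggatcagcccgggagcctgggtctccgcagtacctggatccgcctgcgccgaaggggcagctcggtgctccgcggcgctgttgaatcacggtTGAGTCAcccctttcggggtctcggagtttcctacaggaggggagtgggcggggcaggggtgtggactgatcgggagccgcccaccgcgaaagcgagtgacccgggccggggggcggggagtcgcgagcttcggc
Plaur: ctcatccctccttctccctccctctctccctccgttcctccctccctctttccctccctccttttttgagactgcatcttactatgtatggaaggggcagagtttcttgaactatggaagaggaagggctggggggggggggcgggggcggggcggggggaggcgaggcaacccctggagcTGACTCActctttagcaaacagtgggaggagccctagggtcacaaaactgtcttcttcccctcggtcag
The motif began 154 bases before the start in Procr, 135 in F3 and 69 in Plaur. It was present in 4.46% of 32851 windows of the same length over all genes. In Procr the same bases also matched TGACNNNGC, the core of the antioxidant response element, found in 10.2% of windows. The TATA motif TATAAA, on either strand, occurred in Tfpi and Serpinb2 and in 12.4% of windows. A full glucocorticoid response element, AGAACA and its inverted repeat spaced by 3 bases, and a PPAR response element, AGGTCA repeated after a gap of 1 base, were in none of the 10 windows of these 7 genes, and in 0.00913% and 0.0335% of all windows. These windows were rich in G and C in F3 (70%), Procr (61.6%) and Plaur (59.6%), against a median of 52.4% over all windows.

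Because the genes were picked with their differences known, levels and differences are given for them as a description, without p-values. Differences are in log2(TPM + 1), with the SE from limma, a scale that understates the change of genes at low levels. In GC against Control all 9 genes measured above the filter passed limma's threshold (Benjamini-Hochberg adjusted p of 0.05 over all 14985 genes), 4 higher and 5 lower. Of all genes tested, 55.3% passed in that comparison, 16.2% higher and 39.1% lower. Between GC+GW9662 and GC 8 of 9 passed, 4 higher and 4 lower, with 61.7% of all genes passing, 28.3% higher and 33.5% lower. Between GC+GW9662 and Control 6 of 9 passed, all lower, with 62.7% of all genes passing, 14.1% higher and 48.6% lower. The median difference of the 9 genes was -1.23, -0.70 and -0.52 in these comparisons and that of all genes was -0.38, -0.11 and -0.49. The split of calls over all genes depends on scaling: 2428 higher and 5863 lower in GC against Control became 4070 and 4025 with median-ratio scaling, and 2114 and 7284 in GC+GW9662 against Control became 4387 and 4741. The 9 genes then split into 4 higher and 4 lower, and 1 higher and 4 lower. The 3 comparisons share libraries with each other.

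**Figure D1:**
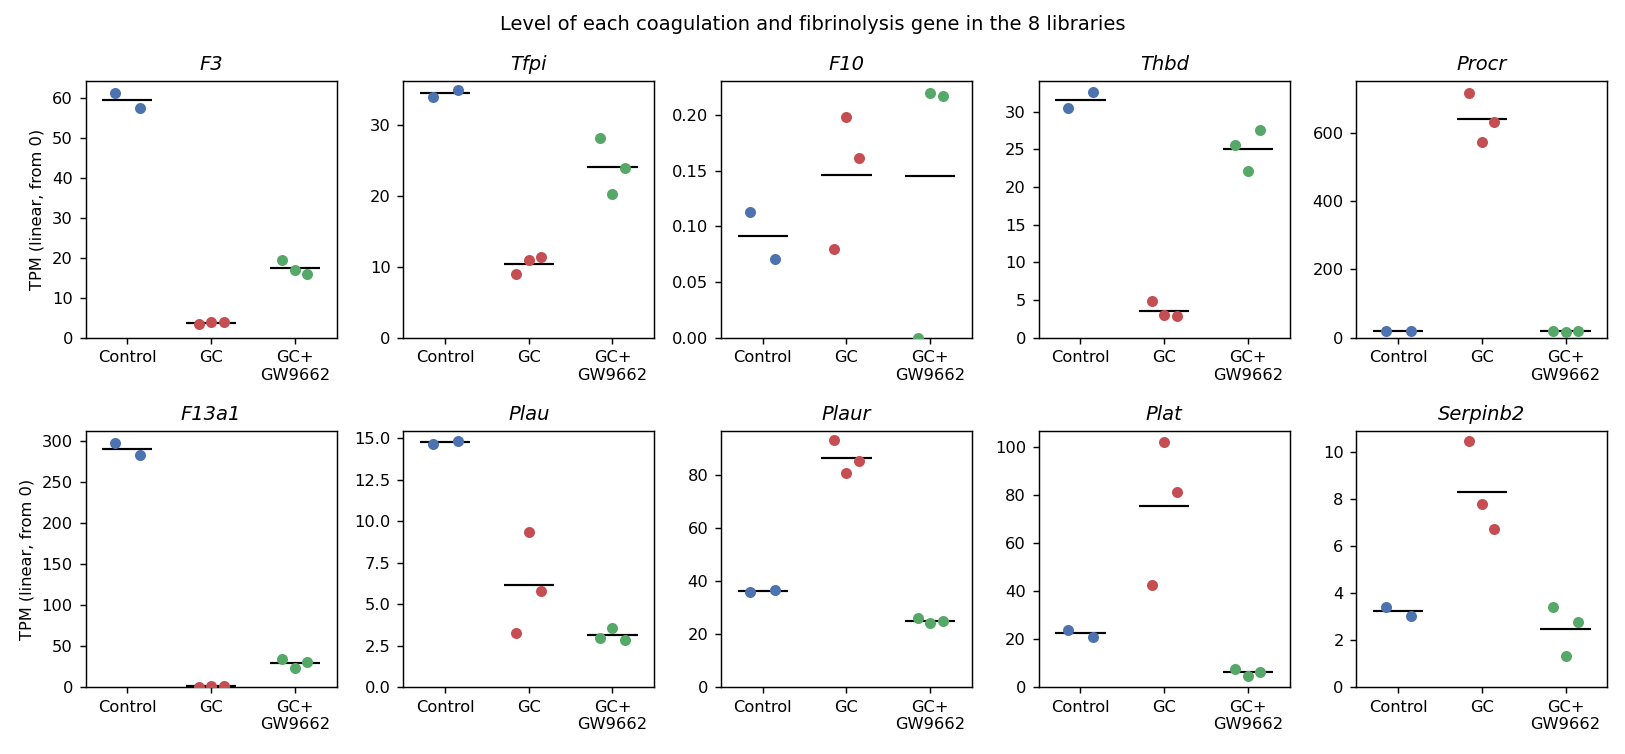
TPM of each of the 10 genes on a linear axis from 0, with 1 point per library and a line at the mean of each group (Control n = 2, GC n = 3, GC+GW9662 n = 3). Procr, Plaur, Plat and Serpinb2 were highest in GC, while F3, Tfpi, Thbd and F13a1 were lowest there and Plau was highest in Control.

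Tissue factor and its inhibitor were both lowest in GC, by unequal amounts. F3, the cell-surface receptor that starts clotting, measured 61.4 and 57.6 TPM in the Control libraries, 3.42, 3.84 and 4.0 in the GC libraries and 19.4, 17.0 and 15.9 in GC+GW9662. No library of one group reached the range of another, with Control highest and GC lowest. The log2 difference was -3.67 ± 0.15 between GC and Control (15.9-fold by group means), 1.95 ± 0.14 between GC+GW9662 and GC, and -1.72 ± 0.15 between GC+GW9662 and Control. Tfpi encodes tissue factor pathway inhibitor, which blocks factor X in its active form and the complex of tissue factor with factor VII. It measured 34.0 and 35.0 TPM in the Control libraries, 9.03, 10.9 and 11.4 in the GC libraries and 28.3, 20.2 and 24.0 in GC+GW9662. The order of the groups was that of F3 and the groups did not overlap, but the span was narrower. The log2 difference of Tfpi was -1.64 ± 0.18 for GC against Control and 1.13 ± 0.16 for GC+GW9662 against GC. For GC+GW9662 against Control it was -0.51 ± 0.18, and neither the call nor the direction was stable. The call was lost when either Control library, GC replicate 3, or GC+GW9662 replicate 2 or 3 was left out (-0.39 to -0.53), without a filter, after rescaling without the mitochondrial and 20 highest genes, with either replicate block and with voom (-0.01). The difference turned to 0.16 with median-ratio scaling and 0.20 with quantile normalization, and with the trend over exon length removed Tfpi passed as higher (0.51).

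The F3 level was above that of Tfpi in Control and below it in the other groups. The ratio of F3 to Tfpi TPM was 1.80 and 1.65 in the Control libraries, 0.379, 0.351 and 0.351 in the GC libraries and 0.685, 0.840 and 0.665 in GC+GW9662. All 6 libraries labelled as given DEX were below 1 and both Control libraries above 1. Multiplying all values of a library by 1 factor leaves such a ratio unchanged. Alternatives that shift genes by unequal amounts can change it. With the length trend removed, F3 in GC+GW9662 against Control went from -1.72 to -1.47 and Tfpi from -0.51 to 0.51. The ratios themselves were recomputed only under other pseudocounts. F10, the zymogen that tissue factor and factor VII activate, was close to the detection limit. It measured 0.113 and 0.0703 TPM in the Control libraries, 0.0800, 0.198 and 0.161 in the GC libraries and 0, 0.219 and 0.217 in GC+GW9662. These values correspond to 3 and 2, then 2, 6 and 5, then 0, 6 and 6 reads recovered from the steps between TPM values. For 6 reads the exact 95% Poisson interval was 2.20 to 13.1 reads and for 0 reads 0 to 3.69, counting error only, so a difference in F10 was not detectable at this depth.

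The receptors of the protein C pathway differed in opposite directions. Procr, the endothelial protein C receptor that presents protein C for activation, measured 18.3 and 18.3 TPM in the Control libraries, 717, 574 and 632 in the GC libraries and 18.9, 18.0 and 18.7 in GC+GW9662. All 3 GC libraries were far above the other 5, and the Control values lay within the range of GC+GW9662. Recovered reads were 311 and 335 in the Control libraries, 11173 to 12603 in GC and 313 to 332 in GC+GW9662. The group mean of GC was 35.0-fold that of Control and 34.6-fold that of GC+GW9662, with log2 differences of 5.05 ± 0.12 for GC against Control and -5.03 ± 0.11 for GC+GW9662 against GC. GC+GW9662 and Control differed by 0.02 ± 0.12. That value was 0.67 with median-ratio scaling and 0.92 with quantile normalization, both past the threshold. These scalings bring the median of all genes in GC+GW9662 against Control from -0.49 to 0.01 and 0.

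Thbd, which encodes thrombomodulin, the thrombin receptor that acts with Procr, was lowest in the libraries where Procr was highest. It measured 30.4 and 32.6 TPM in the Control libraries, 4.84, 2.99 and 2.88 in the GC libraries and 25.5, 22 and 27.6 in GC+GW9662. All GC libraries were below all others, and GC+GW9662 lay just below Control without overlap. Thbd differed on the log2 scale by -2.86 ± 0.22 for GC against Control, an 8.82-fold lower mean, 2.53 ± 0.19 for GC+GW9662 against GC and -0.32 ± 0.22, not past the threshold, for GC+GW9662 against Control. The ratio of Thbd to Procr TPM was 1.67 and 1.78 in Control and 1.35, 1.23 and 1.48 in GC+GW9662, against 0.00675, 0.00522 and 0.00456 in GC. Both are best known from endothelium, and endothelial markers were low throughout: 8 genes summed to 4.13 to 8.85 TPM over the 8 libraries, and 2 of the 8 passed the filter. Among these markers, Pecam1 and Cdh5 were at or below 1.02 and 0.837 TPM.

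F13a1, the catalytic A subunit of factor XIII, which crosslinks fibrin, had the widest range of the 10 genes in log2(TPM + 1). It measured 298 and 284 TPM in the Control libraries, 0.608, 1.5 and 1.92 in the GC libraries and 35.0, 23.5 and 30.7 in GC+GW9662. The 3 groups were far apart, with Control highest and GC lowest. Recovered reads were 12485 and 12753 in the Control libraries, 24, 72 and 94 in the GC libraries and 1015 to 1429 in GC+GW9662, and the exact 95% Poisson interval for the lowest library was 15.4 to 35.7 reads. F13a1 differed on the log2 scale by -7.00 ± 0.27 for GC against Control, 3.74 ± 0.24 for GC+GW9662 against GC and -3.27 ± 0.27 for GC+GW9662 against Control. By means, Control was 217-fold above GC and 9.79-fold above GC+GW9662.

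F13a1 is known from macrophages and from megakaryocytes, and markers of both cell types were measured beside it. Mrc1, a macrophage marker, measured 435 and 407 TPM in the Control libraries, 1.17, 5.10 and 4.50 in the GC libraries and 39.8, 40.6 and 43.2 in GC+GW9662. Of the 10 macrophage genes, 9 fell and 1, Cd68, rose in GC against Control. With GW9662 added, 8 rose and 1 fell against GC, and against Control 7 fell and 3 did not pass. Mrc1 is also 1 of the 3 genes most like F13a1 in pattern (below), and some other macrophage markers took other courses. C1qa measured 7957 and 7927 TPM in Control, 240 to 349 in GC and 9743 to 10173 in GC+GW9662. Cd68 measured 1001 and 956 TPM in Control, 2226 to 3028 in GC and 516 to 647 in GC+GW9662. The summed level of 8 megakaryocyte genes was 262 and 316 TPM in the Control libraries, 52.6 to 68.8 in GC and 500 to 673 in GC+GW9662. Gp9 was at 0 in every library and Itga2b at or below 1.01 TPM. The 2 of these genes that passed the filter went opposite ways. Pf4 was 257 and 312 TPM in the Control libraries and fell to 27.0 to 54.8 in GC, then rose to 497 to 669 in GC+GW9662. Itgb3 was 2.64 and 3.09 TPM in the Control libraries and rose to 13.2 to 25.2 in GC, then fell to 1.65 to 1.77 in GC+GW9662. The part of macrophage or megakaryocyte RNA in the differences of F13a1, F3 and the other genes was not tested.

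The plasminogen activators took different courses. Plau, which encodes the urokinase-type activator uPA, measured 14.6 and 14.8 TPM in the Control libraries, 3.29, 9.34 and 5.78 in the GC libraries and 2.98, 3.56 and 2.86 in GC+GW9662. Control was above all other libraries, and GC overlapped GC+GW9662 through GC replicate 1. The log2 difference of Plau was -1.23 ± 0.34 for GC against Control, -0.70 ± 0.30, not past the threshold, for GC+GW9662 against GC and -1.93 ± 0.34 for GC+GW9662 against Control. Without GC replicate 1 these were -0.91, -1.02 and -1.93, and all 3 passed. The second also passed with quantile normalization (-0.55) and after rescaling without the mitochondrial and 20 highest genes (-0.85). So it did with the length trend removed (-0.88). With only the compared groups fitted, the first (-1.23) did not pass. Without either Control library, with median-ratio scaling (-0.74) or with quantile normalization (-0.49) the Plau difference between GC and Control did not pass.

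Plat, which encodes the tissue-type activator tPA, measured 23.9 and 21.2 TPM in the Control libraries, 42.8, 102 and 81.3 in the GC libraries and 7.81, 4.91 and 6.24 in GC+GW9662. GC was highest and GC+GW9662 lowest, without overlap, and GC replicate 1 held the lowest value of its group, as for Plau. The log2 difference of Plat was 1.62 ± 0.34 for GC against Control, -3.32 ± 0.31 for GC+GW9662 against GC (11.9-fold by means) and -1.70 ± 0.34 for GC+GW9662 against Control. Without GC replicate 1 the first 2 were 1.97 and -3.67. The third shrank to -1.06 with median-ratio scaling, -0.80 with quantile normalization and -0.56 with the length trend removed, and still passed. The ratio of Plat to Plau TPM was 1.63 and 1.43 in the Control libraries, 13, 10.9 and 14.1 in the GC libraries and 2.62, 1.38 and 2.18 in GC+GW9662. GC replicate 1 lay between the other GC libraries in that ratio, although both levels were low there.

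Plaur, the receptor that holds uPA at the cell surface, was highest in GC. It measured 36.1 and 36.8 TPM in the Control libraries, 93.2, 80.8 and 85.3 in the GC libraries and 26.1, 24.3 and 24.8 in GC+GW9662. The groups were tight and separate. Plaur differed on the log2 scale by 1.22 ± 0.12 for GC against Control and -1.74 ± 0.10 for GC+GW9662 against GC. For GC+GW9662 against Control the Plaur difference was -0.52 ± 0.12, near the -0.49 of the median gene. It turned to 0.15 with median-ratio scaling and 0.17 with quantile normalization. The call was also lost with the length trend removed (-0.24) and with voom (-0.03). The ratio of Plau to Plaur TPM was 0.405 and 0.403 in the Control libraries, 0.0353, 0.116 and 0.0678 in the GC libraries and 0.114, 0.146 and 0.115 in GC+GW9662. Both groups with DEX were below Control in that ratio, and they overlapped each other.

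Serpinb2 encodes PAI-2, an inhibitor of uPA and tPA that is mostly kept inside cells. It measured 3.40 and 3.04 TPM in the Control libraries, 10.4, 7.78 and 6.70 in the GC libraries and 3.40, 1.33 and 2.76 in GC+GW9662, on 29 to 208 recovered reads. GC was above all others, and Control and GC+GW9662 overlapped. The log2 difference of Serpinb2 was 1.12 ± 0.31 for GC against Control, -1.44 ± 0.27 for GC+GW9662 against GC and -0.32 ± 0.31, not past the threshold, for GC+GW9662 against Control. Without either Control library the first of these did not pass.

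**Figure D2:**
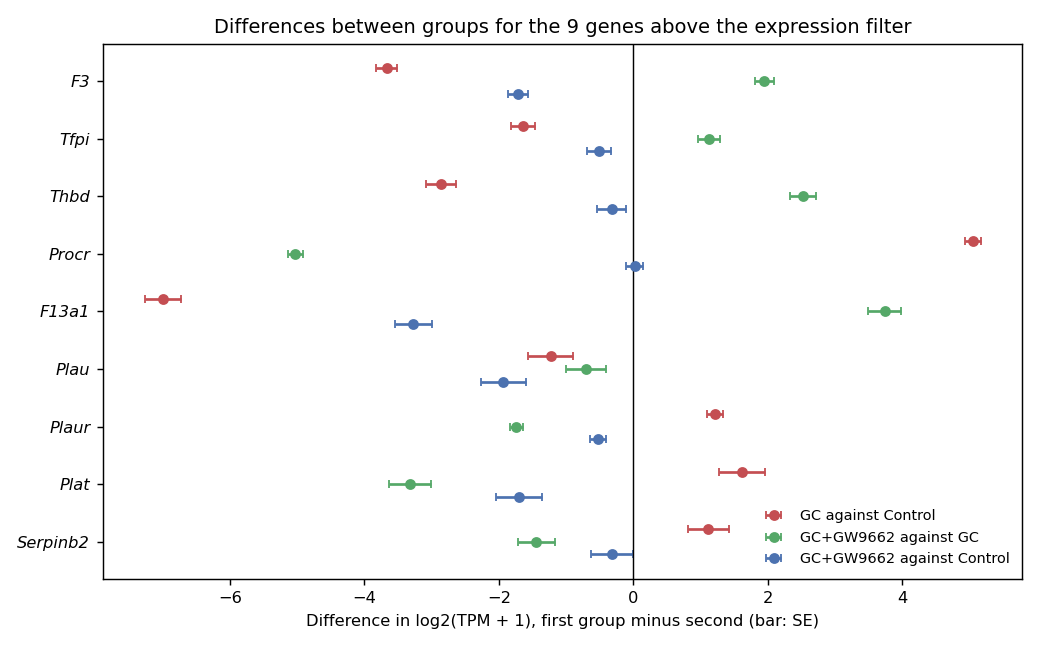
Differences in log2(TPM + 1) between groups for the 9 genes above the filter, first group minus second, with bars of 1 SE from limma. In GC against Control the points run from -7.00 (F13a1) to 5.05 (Procr), and in GC+GW9662 against Control none lies clearly above 0.

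**Figure D3:**
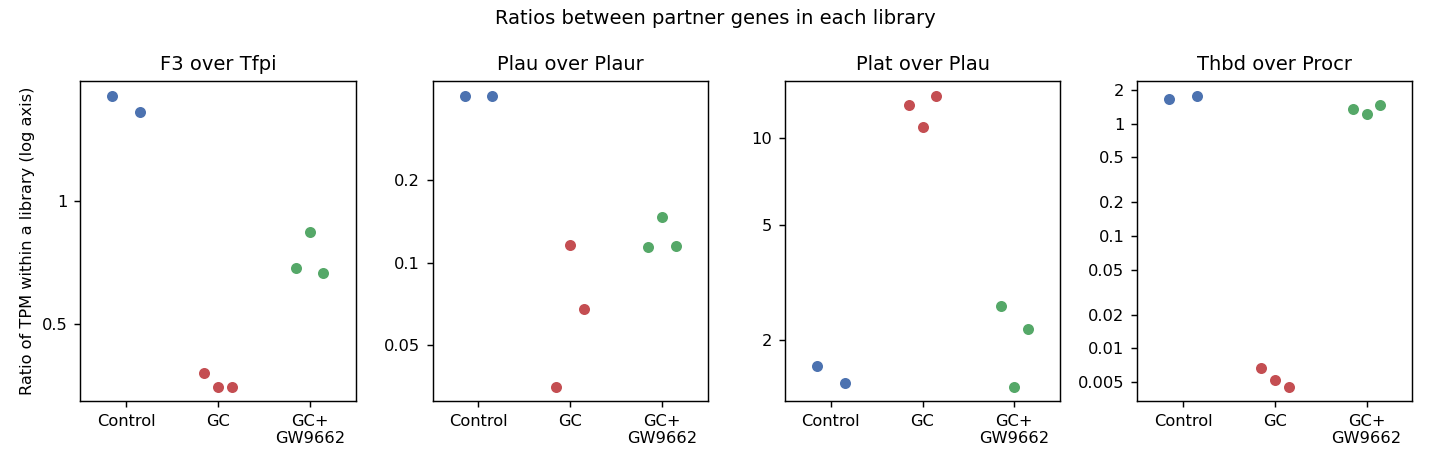
Ratios of TPM between partner genes in each library on log axes (Control n = 2, GC n = 3, GC+GW9662 n = 3). Thbd over Procr separates GC from the other groups most widely, F3 over Tfpi falls below 1 in both groups with DEX, and Plat over Plau is above 10 in GC only among these 8 libraries.

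By levels per length in Control the 10 genes ran from F13a1 (291 ± 10.1 TPM, SD, n = 2) through F3 (59.5 ± 2.69), Plaur (36.4 ± 0.492), Tfpi (34.5 ± 0.650), Thbd (31.5 ± 1.49), Plat (22.5 ± 1.92), Procr (18.3 ± 0.0493), Plau (14.7 ± 0.145) and Serpinb2 (3.22 ± 0.257) to F10 (0.0917 ± 0.0303). Neighbours in that order, such as Plaur and Tfpi, were close, but no pair of neighbours overlapped across the 2 Control libraries. In GC the order began with Procr (641 ± 72 TPM, n = 3), Plaur (86.4 ± 6.29), Plat (75.4 ± 30.0) and Tfpi (10.5 ± 1.26), and F13a1 (1.34 ± 0.669) stood above F10 alone. Plaur and Plat did not differ beyond their spread there. In GC+GW9662 F13a1 (29.7 ± 5.82 TPM, n = 3), Plaur (25.1 ± 0.924), Thbd (25.1 ± 2.81) and Tfpi (24.2 ± 4.01) led within their spread of one another, and Procr (18.5 ± 0.457) and F3 (17.4 ± 1.75) followed.

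Other genes of coagulation and fibrinolysis were described from a list of 45, which was chosen with earlier results of these data known. The adjusted p-values below therefore only describe this list of 45 genes. Of these, 13 were at 0 in all 8 libraries, among them Plg, the plasminogen that uPA and tPA cleave, Proc, the protein C that Procr binds, and Fgb and Fgg, chains of fibrinogen. A further 13 were above 0 somewhere but below the filter, such as F7, the partner of tissue factor, at 0.431 to 0.710 TPM. The remaining 19 were tested. In GC against Control 2 rose, 14 fell and 3 (Anxa5, Tfpi2 and Tgm2) did not pass, with a median of -1.23. In GC+GW9662 against GC 7 rose, 5 fell and 7 did not pass, with a median of 0.43. In GC+GW9662 against Control 2 rose, 13 fell and 4 did not pass, with a median of -1.22. The share of all genes passing in each comparison is given above. With median-ratio scaling, which moves the median of all genes in GC against Control from -0.38 to 0.04, the counts were 3 higher and 11 lower, 11 higher and 4 lower, and 5 higher and 10 lower.

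Lrp1, the endocytic receptor that removes activators bound to their inhibitors, went from 297 ± 3.72 TPM in Control to 13.7 ± 8.24 in GC (log2 -4.54 ± 0.48, limma adjusted p = 1e-04). GC replicate 1 was lowest in it at 4.89 TPM, against 21.2 and 15.1. Anxa2, whose protein forms with that of S100a10 a surface receptor for plasminogen and tPA, went from 688 ± 19.3 to 78.8 ± 4.57 TPM (-3.11 ± 0.10, adjusted p = 4.6e-07). S100a10 itself went from 1049 ± 87.6 to 469 ± 166 TPM in GC (-1.22 ± 0.25, adjusted p = 0.0039), a call lost with median-ratio scaling (-0.67, adjusted p 4.4e-05 to 0.15 over the alternatives). In GC+GW9662 against GC, Anxa2 rose to 363 ± 25.8 TPM (2.19 ± 0.09, adjusted p = 1e-06) and S100a10 from 469 ± 166 to 2025 ± 195 TPM (2.16 ± 0.23, adjusted p = 1.1e-04). Lrp1 rose to 34.6 ± 4.58 TPM (1.47 ± 0.43, adjusted p = 0.018), a call lost without GC+GW9662 replicate 2 (1.38, adjusted p 5e-05 to 0.061 over the alternatives). Plgrkt, another plasminogen receptor gene, rose by 0.99 ± 0.13 (adjusted p = 3.2e-04) in that comparison, and in GC against Control it differed by -0.81 ± 0.14 (adjusted p = 0.0016). The latter call was lost with median-ratio scaling (-0.27) and with the length trend removed (-0.24, adjusted p 1.1e-04 to 0.33 over the alternatives).

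Pros1, which encodes protein S, the cofactor of activated protein C, went from 105 ± 5.72 to 26.2 ± 7.53 TPM in GC (-2.0 ± 0.28, adjusted p = 4.9e-04, limma), and it was 35.4 ± 9.18 in GC+GW9662 (against Control -1.58, adjusted p = 0.0029). Gas6, a relative of protein S and ligand of TAM receptors, went from 2787 ± 96.8 to 645 ± 204 TPM (-2.16 ± 0.26, adjusted p = 2.3e-04) and rose in GC+GW9662 against GC (0.97 ± 0.24, adjusted p = 0.0082). F2r, which encodes the thrombin receptor PAR1, went from 277 ± 4.99 to 50.5 ± 18.3 TPM (-2.50 ± 0.30, adjusted p = 2.3e-04) and stayed below Control in GC+GW9662 (-1.89, adjusted p = 0.0023). Kng1, a kininogen gene, fell in GC (-2.20 ± 0.32, adjusted p = 6.3e-04), and so did Serpinb8, a serpin gene that neighbours Serpinb2 (-2.21 ± 0.18, adjusted p = 2.8e-05). Against Control, GC+GW9662 was lower in Kng1 (-1.48, adjusted p = 0.0052), Serpinb8 (-1.54, adjusted p = 0.0012), Lrp1 (-3.07, adjusted p = 0.0022) and Tgm2 (-1.93, adjusted p = 0.0059). With quantile normalization that Kng1 call was lost (-0.72, adjusted p 0.0023 to 0.11 over the alternatives). The 2 rises there were S100a10 (0.95 ± 0.25, adjusted p = 0.012) and Vkorc1 (0.64 ± 0.15, adjusted p = 0.0077), named after their values were seen, and both calls were lost without Control replicate 1 (0.86 and 0.50).

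Mcfd2, the partner of Lman1 in carrying factors V and VIII out of the endoplasmic reticulum, and Serpinb6a were the 2 rises in GC against Control, at 0.87 ± 0.11 (limma adjusted p = 2.8e-04) and 0.39 ± 0.10 (adjusted p = 0.0089); both were named after their values were seen. The Serpinb6a call was lost without either Control library (adjusted p 0.0017 to 0.072 over the alternatives). Mcfd2 fell by 0.79 in GC+GW9662 against GC (adjusted p = 2.7e-04). Lman1 itself differed by -1.23 ± 0.31 in GC against Control (adjusted p = 0.011), a call lost without Control replicate 1 and with the length trend removed (-0.31, adjusted p 0.001 to 0.092 over the alternatives). It differed by -2.08 in GC+GW9662 against Control (adjusted p = 0.0020) and by -0.85 ± 0.28 in GC+GW9662 against GC (adjusted p = 0.029). The latter call was lost when replicate 2 or 3 of GC, or replicate 2 or 3 of GC+GW9662, was left out, without a filter and with either replicate block (adjusted p 7.6e-05 to 0.093 over the alternatives). Vkorc1, which recycles vitamin K for the maturation of several clotting factors, rose by 1.46 ± 0.14 (adjusted p = 6.4e-05) in GC+GW9662 against GC. Tgm2, tissue transglutaminase and a relative of F13a1, fell there from 34.7 ± 17.9 to 5.44 ± 0.725 TPM (-2.32 ± 0.39, adjusted p = 0.0013), while in GC against Control it did not pass (0.38 ± 0.43, adjusted p = 0.49). Without GC replicate 1, where Tgm2 was 15.0 TPM against 50.1 and 39.0, it passed as higher in that comparison (0.88, adjusted p 0.0024 to 0.93 over the alternatives).

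**Figure D4:**
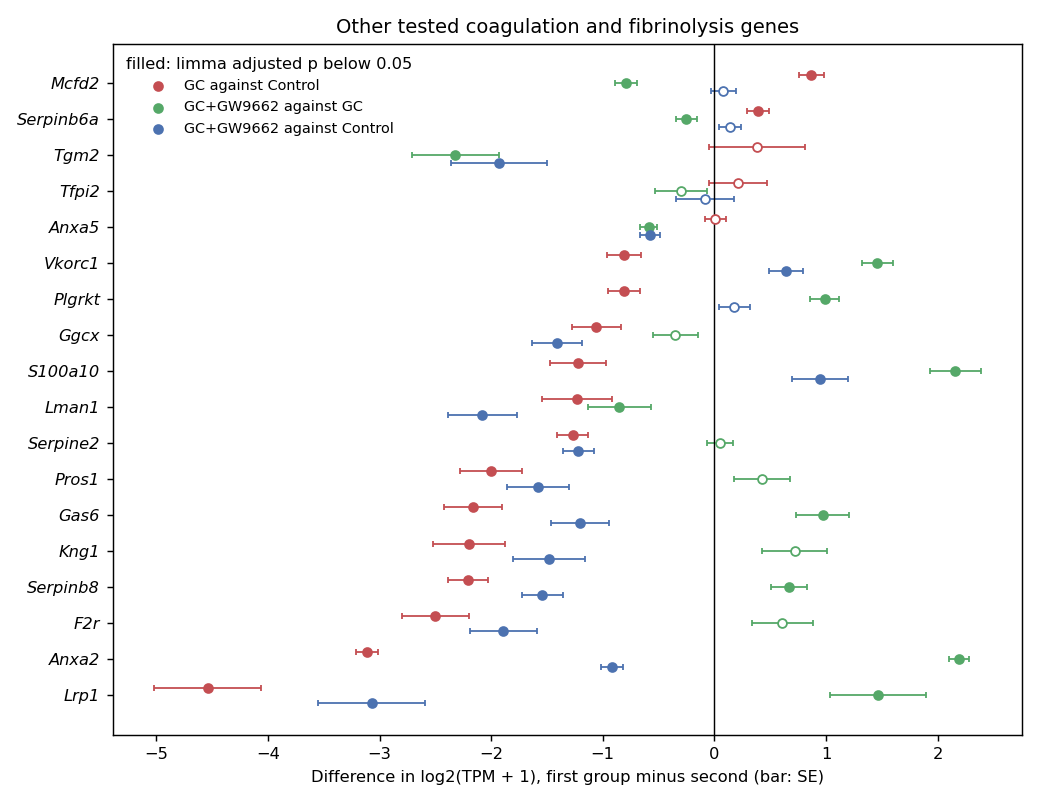
Differences in log2(TPM + 1), first group minus second, with bars of 1 SE for 18 of the 19 other coagulation and fibrinolysis genes that were tested; filled points passed limma's adjusted p of 0.05. Lrp1 and Anxa2 lie lowest in GC against Control at -4.54 and -3.11, and S100a10 and Anxa2 lie highest in GC+GW9662 against GC at 2.16 and 2.19.

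Genes next to the 10 on their chromosomes were examined beside them. Thbd and Cd93, which encodes a related C-type lectin receptor, lie 28452 bases apart on chromosome 2. Cd93 went from 126 TPM in Control to 2.29 in GC and 23.9 in GC+GW9662 (log2 -5.29 for GC against Control, limma adjusted p = 6.8e-07; 2.93 for GC+GW9662 against GC, adjusted p = 5.5e-06). Procr, on the same chromosome at 155751117 to 155755471, had Edem2 and Mmp24 as its nearest tested neighbours. Edem2 stood at 57.9, 71.8 and 57.9 TPM in the 3 groups (0.30, adjusted p = 0.068, GC against Control), and Mmp24 at 0.427, 1.61 and 0.164 TPM (0.85, adjusted p = 0.014). Calcrl, 7444 bases from Tfpi, fell in GC against Control (-1.57, adjusted p = 0.0042) and differed by 0.27 (adjusted p = 0.44) in GC+GW9662 against GC. Ap3m2, 4510 bases from Plat, differed by -0.36 in GC against Control (adjusted p = 0.19). Coordinates are GENCODE M21, whose gene starts and ends were those of 97.4% of the table's rows.

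Where exons on opposite strands overlap, their reads cannot be separated without strand. Overlap below is that of gene spans, introns included, and overlap of exons was not checked. F13a1 (chromosome 13, 36867178 to 37050244, minus strand) overlaps the predicted genes Gm49144 and Gm30489 on the other strand, which stood at or below 0.403 TPM in every group mean. Serpinb2 (chromosome 1, 107511423 to 107535478, plus strand) overlaps Serpinb10 on the same strand, at or below 0.0279 TPM. The other 8 genes had no overlapping gene in the table.

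For each of the 9 genes the 3 tested genes with the most similar pattern were found by the root mean square difference of log2(TPM + 1) over the 8 libraries, after centring each gene on its mean. For F13a1 they were Tlr8 (0.193), Lpl (0.264) and Mrc1 (0.318), and for F3 Lcp2 (0.143), Mef2c (0.149) and Itgam (0.159). Mrc1 and Itgam are on the macrophage list, and Lpl on the adipocyte list. For Procr they were Mir1938 (0.0914), Gadd45a (0.176) and Mmp10 (0.209). Gadd45a went from 42.4 TPM in Control to 1203 in GC and 38.9 in GC+GW9662. Nearest to Plat were Eaf1 (0.0809), Eif5 (0.121) and Hmga2 (0.147), to Plaur Tubb2a (0.116), Gclm (0.124) and Cldn12 (0.129), and to Thbd Eva1c (0.109), Tmem176b (0.125) and Fut11 (0.132). Nearest to Tfpi were Capzb (0.0528), Ssh3 (0.0802) and Adk (0.0869), to Plau Cp (0.0838), Wdr44 (0.0966) and Sik3 (0.105), and to Serpinb2 Tnfsf18 (0.162), Pir (0.167) and Mcoln2 (0.195). With 3 groups far apart, many genes share such a pattern, and the measure is smaller for genes that vary less.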

How the data were processed

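RNA of 8 libraries was measured in 3 groups. The deposited table gives TPM per gene, made by the authors with fastp, HISAT2 2.1.0 and featureCounts, per the submitters' processing notes; genome build and annotation are not given in the sources used here. TPM has the same sum in every library, so values are shares. Every value column belonged to a labelled library (0 did not). Of 54232 rows, 98 identical repeats were dropped and 27 date-like symbols were mended through their Ensembl IDs, leaving 54134 genes.

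The test ran on log2(TPM + 1) of the 14985 genes that had 1 TPM or more in 2 or more libraries. It used limma 3.58.1 (R 4.3.3, data read with data.table, version 1.17.8), fitting all 8 libraries with 1 mean for each group and a prior variance that followed the mean level. Tests were two-sided, and p-values were adjusted by Benjamini-Hochberg, at 0.05, in each of the 3 comparisons separately. The fit was also run on simulated data with independent noise and few changed genes. That setting differs from these data, where most tested genes passed, so it does not test the scaling. Tables and plots used Python 3.11.15, numpy 2.4.6, pandas 2.3.3, scipy 1.17.1 and matplotlib 3.10.9.

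Low TPM values were whole multiples of 1 read (tolerance 0.02) for 99.7% of 26812 genes above 0, at the M21 exon length (11684) or at another length found from their steps (15037). That other length was searched for until it fitted, which succeeds easily for genes above 0 in few libraries. For such genes the 99.7% is no check of the read numbers. Read numbers come from the steps between TPM values, and depths summed from them may be too low. PCR copies cannot be told from molecules here, so intervals cover counting error only.

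The 10 genes, the 45 other pathway genes and the marker lists were chosen with earlier results of these data known. Named were the 10 genes; per comparison the 8 passing pathway genes with the largest difference and at least 5 TPM in a group mean, of which 1 gene is not reported here; the nearest tested neighbours, of which some are left out; the 3 genes most alike, without clone and predicted-gene names; and 4 label check genes, of which Fkbp5 and Tsc22d3 are given. Genes outside this rule are S100a10, Lman1 and Plgrkt in GC against Control, Mcfd2, Serpinb6a, and Vkorc1, S100a10, Anxa5 and Serpine2 in GC+GW9662 against Control. Also outside it are the named genes that did not pass, those at 0, F7 and the named markers.

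Alternatives changed the pseudocount (0.1 or 5), the filter (none, or 5 TPM), the scaling (median-ratio, quantile, or without mitochondrial genes and the 20 most abundant), the prior (constant) and the libraries fitted (only those compared, or each left out once), or added a replicate block. Removal of the exon-length trend and voom on recovered reads were added after seeing the data. Titles and bracketed labels number the second Control library differently, and the title's number is used.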

Additional observations from a re-analysis of the deposited data

How the results depend on the processing

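Of 567 recomputed differences of the 9 genes, 537 kept their call, 19 lost it, 6 gained one and 5 reversed. Of 1197 for the other pathway genes 1120 kept theirs, 38 lost, 36 gained and 3 reversed. A reversal is counted only where the reported or the alternative difference passed, so sign changes that passed in neither, such as Thbd (up to 0.41) and Serpinb2 (up to 0.32) against -0.32 each in GC+GW9662 against Control, are not among them. All reversals but 1 were in GC+GW9662 against Control: Plaur (0.15 with median-ratio scaling, 0.17 with quantile normalization), Tfpi (0.16, 0.20, and 0.51 with the length trend removed), Anxa5 (0.11, median-ratio) and Serpine2 (0.15, length trend). The other was Serpinb6a in GC+GW9662 against GC (0.07, length trend). Scaling set the counts over all genes. Genes higher in GC against Control numbered 2428, but 4070 with median-ratio scaling, 4187 with quantile normalization and 4478 with the length trend removed, with 4025, 3915 and 3818 lower in place of 5863. Genes higher in GC+GW9662 against Control numbered 2114, but 4387, 4216, 3643 and, with voom, 3662, with 4741, 4443, 3284 and 5416 lower in place of 7284. Omitting single libraries gave 1637 to 3009 higher and 3876 to 6303 lower in GC against Control, and 902 to 2580 and 4696 to 7749 in GC+GW9662 against Control. The lowest counts of 3876, 902 and 4696 came without Control replicate 1, and without Control replicate 2 the higher count in GC+GW9662 against Control was 1261. In GC+GW9662 against GC these were 3516 to 4446 and 3762 to 6313, and voom split its calls into 4997 higher and 4305 lower, rescaling into 3801 and 5796, in place of 4236 and 5017. Members passing numbered 7 to 9, 8 to 9 and 5 to 6 over single omissions, and 4 with voom in GC+GW9662 against Control. Same-numbered GC and GC+GW9662 libraries deviated from their group means with correlations of -0.10, -0.12 and 0.08. Those of different number gave -0.10 to 0.14, so the numbers showed no sign of pairing. With 3 libraries per group such a check cannot exclude it, and Control was not included. A replicate block by title number gave 1999 higher and 5146 lower, 3850 and 4501, and 1780 and 6588 in the 3 comparisons, and among the 10 genes it ended only the Tfpi call in GC+GW9662 against Control (-0.54). Of 30 ratios under other pseudocounts 8 moved by more than 1 SD and none changed sign. The causes were not tested. Depth limits F10, at 0 to 6 reads, and F13a1 in GC, at 24 to 94.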
